A study of Mus musculus with 6 samples.

Results

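Type I interferon response genes were followed in mouse CD8+ T cells that lacked the phosphatase Dusp2 and in wild-type cells, all of which had been cultured with IFN-α. The genes were 45 listed interferon-induced genes, taken without the Ifit, Gbp, Ifi200 and Ly6 families, whose FPKM (fragments per kilobase and per unit of library depth) averaged 1 or more across the 6 libraries. A row was found for 44 of the 45, and all 44 passed, among 9691 genes tested in all. Lgals3bp2 was not analysed here. The lowest of the 44 was Ifi44, with between 0.941 and 2.43 FPKM in the 6 libraries, and no listed gene with a row fell outside the threshold. Transcription factors made up 4 of the genes (Stat2, Irf1, Irf7 and Irf9) and antiviral effectors, sensors and regulators the other 40.

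RNA came from Dusp2-/- mice (Dusp2KO) and WT mice. Lymph node CD8+ T cells were activated for 18 h by coated anti-CD3 antibody at 1 µg/mL and anti-CD28 antibody at 1 µg/mL. The medium held 20 ng/mL IL-4 beside 50 ng/mL IFN-α. This treatment was used to induce virtual memory T cells, a memory-phenotype population that arises without a known encounter with antigen. Harvested cells were sorted on CD44, an adhesion receptor that rises on activation, into a fraction labelled CD44super-high or CD44hi and a CD44lo fraction. Each genotype had 2 CD44hi libraries and 1 CD44lo library. Since every culture received the same dose of IFN-α, no comparison here is of cells with and without interferon. The treatment text of the labels names mice with floxed Rpa1 and Cd4-Cre in place of Dusp2-/-, whereas the titles, genotype labels and design text name Dusp2. Whether each library is a separate animal or culture is not labelled, and the p-values measure the spread between these libraries, which may be technical.

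The deleted gene itself, Dusp2, had 0 FPKM and 0.0283 FPKM (3 reads) in the Dusp2KO CD44hi libraries and 0 FPKM in Dusp2KO CD44lo, against 82.6 and 83.9 FPKM in WT cells of the CD44hi fraction and 115.8 FPKM in WT CD44lo. The limit that a count of 0 allows was 0.0264 FPKM in the first of these libraries and 0.0628 FPKM in Dusp2KO CD44lo. Rpa1 was not lower in the Dusp2KO libraries, with 41.3 and 41.4 FPKM in CD44hi and 28.2 FPKM in CD44lo, against 33.7 and 35.2 FPKM in WT cells of the CD44hi fraction and 27.4 FPKM in WT CD44lo. Cd44 was between 65.3 and 79.9 FPKM in the 4 CD44hi libraries and, in CD44lo, at 1.33 FPKM in Dusp2KO and 1.43 FPKM in WT. Recovered reads numbered 42816073 to 55830235 in 5 libraries and 23490008 in Dusp2KO CD44lo. Of the defining CD8 T cell genes, 7 of 7 had a row and their summed level was 1091 to 1607 FPKM, while 4 of 4 CD4 T cell genes were below 1 FPKM in every library.

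Type I interferons bind a receptor of the chains IFNAR1 and IFNAR2, whose kinases JAK1 and TYK2 phosphorylate STAT factors. STAT2 acts in a complex with IRF9 that binds the interferon-stimulated response element (ISRE), while STAT dimers bind a palindromic element called GAS. IRF7 and IRF1 are themselves induced by interferons and bind related elements, so the factors that carry the response are also among its targets. In CD8+ T cells, type I interferon acts during priming as a signal beside the antigen receptor and costimulation, and with IL-4 it has been used to favour memory-phenotype cells.

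The promoter windows of 5 genes are given because they hold the motifs of the pathway and because their genes differed in how they moved between genotypes. Sequences are from RefSeq, build GRCm38.p6, and run 5′ to 3′ on the strand of the gene, from 250 bases before to 50 after a start site. Capitals mark matches to the ISRE core GAAANNGAA or to the GAS motif TTCNNNGAA on either strand. Irf1 lies at chr11:53769764-53770063 (plus strand), Isg20 at chr7:78913174-78913473 (plus strand), Stat2 at chr10:128270248-128270547 (plus strand), Isg15 at chr4:156200769-156201068 (minus strand) and Oas1a at chr5:120907476-120907775 (minus strand).
Irf1: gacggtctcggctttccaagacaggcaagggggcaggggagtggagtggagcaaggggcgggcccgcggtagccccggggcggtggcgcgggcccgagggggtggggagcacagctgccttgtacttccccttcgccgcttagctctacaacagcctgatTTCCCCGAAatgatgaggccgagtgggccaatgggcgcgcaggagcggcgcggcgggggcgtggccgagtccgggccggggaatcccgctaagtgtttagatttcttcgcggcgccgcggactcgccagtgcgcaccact
Isg20: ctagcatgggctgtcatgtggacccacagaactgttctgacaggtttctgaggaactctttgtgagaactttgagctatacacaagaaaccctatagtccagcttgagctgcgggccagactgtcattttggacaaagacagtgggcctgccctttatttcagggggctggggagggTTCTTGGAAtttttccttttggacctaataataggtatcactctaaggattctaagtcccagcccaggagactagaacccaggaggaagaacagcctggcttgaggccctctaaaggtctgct
Stat2: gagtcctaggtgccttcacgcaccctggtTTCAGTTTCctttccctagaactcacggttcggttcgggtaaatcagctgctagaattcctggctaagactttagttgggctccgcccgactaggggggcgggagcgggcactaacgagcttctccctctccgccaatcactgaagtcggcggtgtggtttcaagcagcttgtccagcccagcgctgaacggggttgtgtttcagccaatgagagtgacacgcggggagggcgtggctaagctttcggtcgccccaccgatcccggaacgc
Isg15: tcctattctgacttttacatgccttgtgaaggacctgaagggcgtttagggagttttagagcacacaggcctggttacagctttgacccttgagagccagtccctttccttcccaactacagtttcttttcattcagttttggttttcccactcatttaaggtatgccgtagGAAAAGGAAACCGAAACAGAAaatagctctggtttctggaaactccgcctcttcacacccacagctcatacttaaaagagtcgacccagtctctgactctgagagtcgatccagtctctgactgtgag
Oas1a: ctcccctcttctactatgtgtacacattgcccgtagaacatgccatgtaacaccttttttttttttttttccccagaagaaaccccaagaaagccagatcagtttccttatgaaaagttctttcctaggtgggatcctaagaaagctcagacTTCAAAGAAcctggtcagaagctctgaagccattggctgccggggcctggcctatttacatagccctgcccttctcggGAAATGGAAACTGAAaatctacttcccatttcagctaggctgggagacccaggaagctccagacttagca
The Irf1 window shown, 1 of 2, held a GAS match at −90 to −82 from its start site, and the Isg20 window shown, 1 of 3, held one at −73 to −65. Neither held an ISRE core, and the other windows of these genes held no match to either motif. In Stat2 the ISRE core lay at −221 to −213. Isg15 carried 3 overlapping ISRE matches between −78 and −58. In Oas1a 2 overlapping ISRE matches lay between −20 and −6 and a GAS match at −98 to −90.

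A window was found for 32 of the 44 genes (41 windows, since some genes had more than 1 start site). The ISRE core was present in 16 of the 32 genes (50%), against 9.76% of 27025 genes with a window. GAS was present in 7 of the 32 (21.9%), against 9.55% of all genes. Counted by window, the shares were 41.5% against 8.56% for ISRE and 17.1% against 8.3% for GAS. The motifs overlapped each other in 1 gene, Bst2. No match was found in the windows of Irf7, Irf9, Oasl1, Oasl2, Rnf213 or Parp12, which says only that these letters are absent from these windows.

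**Figure D1:**
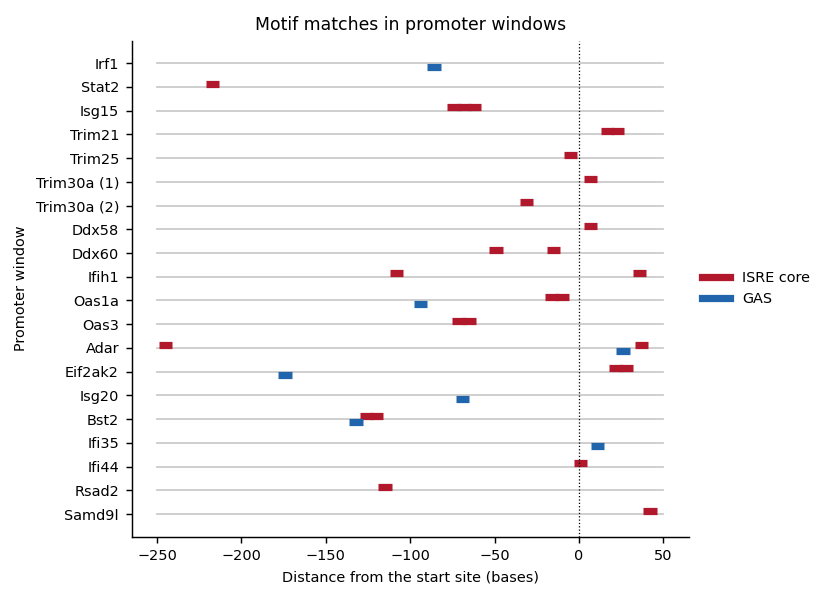
Positions of ISRE core matches (red) and GAS matches (blue) in the promoter windows of the interferon response genes that held a match, by distance from the start site in bases, with a number in brackets where matches lay in more than 1 window of a gene. Matches in Irf1 and Isg20 were GAS and those in Stat2 and Isg15 were ISRE cores.

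Within CD44hi cells, interferon response genes were lower without Dusp2. Of the 44 genes, 23 were lower in Dusp2KO than in WT, 2 were higher (Rnf213 and Parp12) and 19 did not pass the test (limma on log2(FPKM + 1), Benjamini-Hochberg adjusted p below 0.05 over all 9691 genes). Over all genes tested, 13.8% were called lower and 12.9% higher, 26.7% in all. The median log2 difference was −0.27 over the 44 genes and −0.02 over all genes. Both Dusp2KO libraries lay below both WT libraries in 30 of the 44 genes (36.2% of all genes) and above them in 5 (32% of all genes), and 9 genes overlapped.

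The summed level of the 44 genes was 1555 and 1602 FPKM in Dusp2KO CD44hi, against 1970 and 2119 FPKM in WT CD44hi. In CD44lo it was 3054 FPKM in Dusp2KO, against 3449 FPKM in WT. As a share of all FPKM, this was 0.516% and 0.527% for Dusp2KO and 0.641% and 0.667% for WT among CD44hi libraries, and 0.917% for Dusp2KO and 1.11% for WT in CD44lo. The sum was therefore lowest in Dusp2KO CD44hi and highest in WT CD44lo, with no overlap between the CD44hi groups. In bulk RNA, fewer cells that express a gene and less of its RNA per cell cannot be told apart.

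Other measures moved with genotype, and their part in the result was not tested. The mitochondrial share of reads was 2.73% and 2.94% for Dusp2KO and 2.15% and 2.03% for WT among CD44hi libraries, and 3.79% for Dusp2KO and 2.56% for WT in CD44lo. The B cell list, with a row for 3 of 6 genes, summed to 22.4 to 24.8 FPKM in Dusp2KO CD44hi, against 10.1 to 12.6 FPKM in WT CD44hi, and to 11.4 FPKM in Dusp2KO CD44lo, against 7.20 FPKM in WT CD44lo. Cd79b carried that sum, while Cd79a and Cd22 were below 1 FPKM in every library. Summed dendritic cell genes (4 of 6 with a row) came to 3.04 to 3.32 FPKM in Dusp2KO CD44hi, against 2.13 to 2.28 FPKM in WT CD44hi. Zbtb46 carried that rise, at 1.86 and 1.82 FPKM against 0.619 and 0.653 FPKM. Itgax went the other way, at 1.44 and 1.20 FPKM against 1.67 and 1.46 FPKM. The CD8 T cell genes summed to 1091 to 1134 FPKM in Dusp2KO CD44hi, against 1224 to 1313 FPKM in WT CD44hi. Of these, Cd3d, Cd3e, Cd3g and Lck were called lower, while Cd8a, Cd8b1 and Cd2 did not pass. In the same fraction, stroma and endothelium genes (3 of 6 with a row) summed to 5.21 to 5.53 FPKM in Dusp2KO, against 7.21 to 8.63 FPKM in WT, and Pecam1, an adhesion molecule that carried the sum, was lower (log2 difference −0.48, adjusted p = 0.017).

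**Figure D2:**
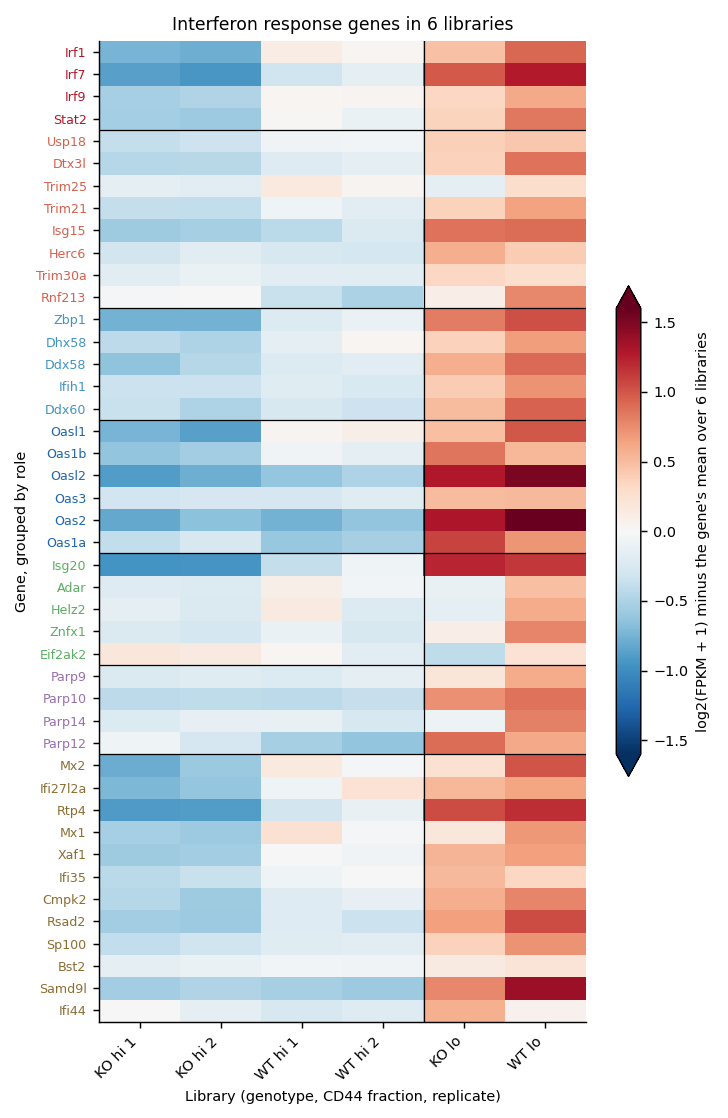
Level of each of the 44 interferon response genes in each of the 6 libraries, as log2(FPKM + 1) minus the gene's mean over the libraries, with genes in rows by role (horizontal lines) and CD44hi libraries left of CD44lo libraries. KO is Dusp2KO and hi and lo are the CD44 fractions. Most rows were lowest (blue) in the 2 Dusp2KO CD44hi libraries and highest (red) in the 2 CD44lo libraries.

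All 4 STAT and IRF factors fell in Dusp2KO CD44hi cells, with a median log2 difference of −0.61. Irf1, which encodes a factor induced by both type I and type II interferon, was at 40.1 and 38.8 FPKM in Dusp2KO CD44hi, against 73.7 and 68.9 FPKM in WT CD44hi. It was 0.553 times the WT level (log2 difference −0.84, SE 0.066, adjusted p = 0.0011), and the groups were far apart compared with their own spread. Irf7, which amplifies interferon production, was at 25.8 and 24.5 FPKM in Dusp2KO CD44hi, against 38.3 and 43.3 FPKM in WT CD44hi (log2 difference −0.67, SE 0.078, adjusted p = 0.0035).

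Stat2 and Irf9, whose products act in the same complex, were lower as well. Stat2 was at 13.8 and 13.3 FPKM in Dusp2KO CD44hi, against 20.8 and 19.0 FPKM in WT CD44hi (log2 difference −0.52, SE 0.07, adjusted p = 0.0049). Irf9, the DNA-binding subunit, was at 13.8 and 14.3 FPKM in Dusp2KO CD44hi, against 20.9 and 21.2 FPKM in WT CD44hi (log2 difference −0.55, SE 0.062, adjusted p = 0.0032). The libraries of the 2 genotypes did not overlap in either gene. Summed over the 4 factors, the level was 93.5 and 91.1 FPKM in Dusp2KO CD44hi, against 153.7 and 152.4 FPKM in WT CD44hi.

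**Figure D3:**
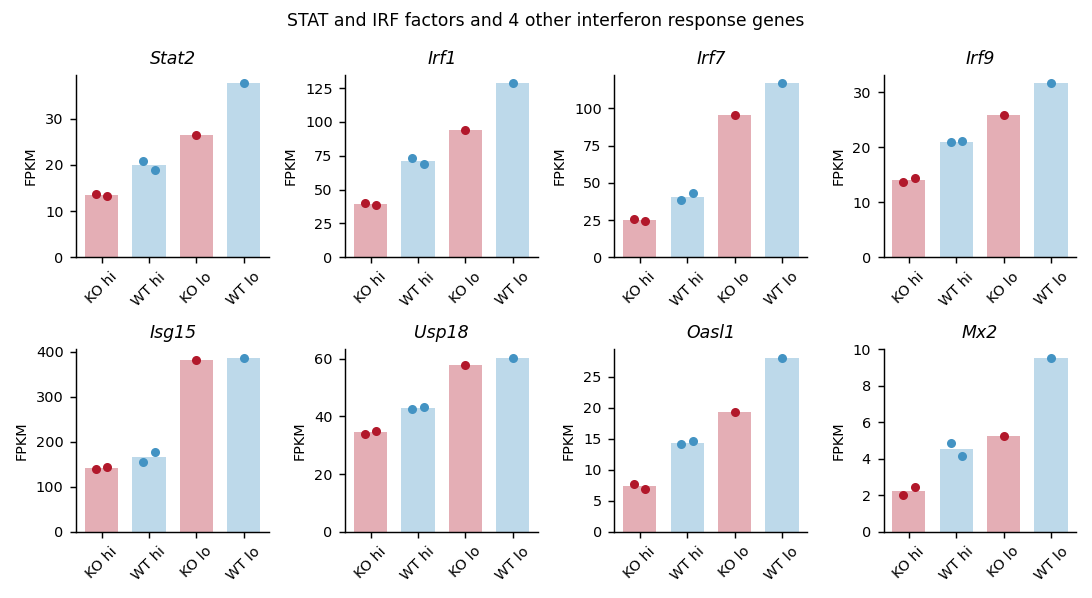
FPKM of the 4 STAT and IRF factors and of Isg15, Usp18, Oasl1 and Mx2, by group (KO is Dusp2KO, hi and lo are CD44hi and CD44lo). Points are libraries and bars are their mean (2 libraries for CD44hi, 1 for CD44lo). Irf1 was at 40.1 and 38.8 FPKM in KO hi, against 73.7 and 68.9 FPKM in WT hi, while the difference in Isg15 did not pass the test.

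The other 40 genes were more mixed than the factors. Among them 19 were lower in Dusp2KO CD44hi, 2 were higher and 19 did not pass, with a median log2 difference of −0.23. The factors and the rest were not compared by a test, and the differences of the 40 reached from −0.88 to 0.42 on the log2 scale. The counts by role that follow stand beside 13.8% lower and 12.9% higher over all genes tested. No role was tested as a set.

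In the ISG15 and ubiquitin system, 4 of 8 genes fell, 1 rose and 3 did not pass. Isg15, a ubiquitin-like protein that is attached to other proteins after interferon, was at 140 and 144 FPKM in Dusp2KO CD44hi, against 154 and 178 FPKM in WT CD44hi (log2 difference −0.22, adjusted p = 0.11). Usp18, the protease that removes ISG15 and also restrains the interferon receptor, was at 34.0 and 35.02 FPKM in Dusp2KO CD44hi, against 42.5 and 43.1 FPKM in WT CD44hi (log2 difference −0.30, SE 0.06, adjusted p = 0.015). Dtx3l, a ubiquitin ligase that partners PARP9, and the ubiquitin ligases Trim25 and Trim21 also fell, with log2 differences of −0.28, −0.27 and −0.27.

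Rnf213, a very large ubiquitin ligase, went the other way. It was at 44.8 and 45.1 FPKM in Dusp2KO CD44hi, against 35.2 and 31.6 FPKM in WT CD44hi (log2 difference 0.42, SE 0.072, adjusted p = 0.0099), while in CD44lo it was at 49.0 FPKM in Dusp2KO, against 78.0 FPKM in WT. Its order between genotypes was thus opposite in the 2 fractions. Herc6, which conjugates ISG15 in mice, and Trim30a had log2 differences of 0.03 each and did not pass.

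Among the nucleic acid sensors, 3 of 5 fell. Zbp1, a sensor of Z-form nucleic acids, had the largest difference of them, at 40.4 and 40.5 FPKM in Dusp2KO CD44hi, against 59.1 and 64.0 FPKM in WT CD44hi (log2 difference −0.59, adjusted p = 0.0031). Dhx58 (LGP2) and Ddx58 (RIG-I), helicases that bind viral RNA, fell with log2 differences of −0.40 and −0.35. Ifih1 (MDA5) and Ddx60 each had a log2 difference of −0.13 and did not pass.

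The OAS family split within itself, with 3 of 6 genes lower and 3 not passing. Only some of its members make the 2′-5′ oligoadenylates that activate RNase L. Oasl1 was at 7.74 and 6.95 FPKM in Dusp2KO CD44hi, against 14.1 and 14.6 FPKM in WT CD44hi, 0.513 times the WT level. On the log2(FPKM + 1) scale Oasl1 had the largest fall of the 44 genes (−0.88, SE 0.074, adjusted p = 0.0014). Its chromosomal neighbour Oasl2 was at 5.65 and 6.16 FPKM in Dusp2KO CD44hi, against 6.997 and 7.77 FPKM in WT CD44hi (log2 difference −0.28, SE 0.08, adjusted p = 0.045). So neighbours on chromosome 5 with no protein-coding gene between them differed in size of fall. Oas1b fell by 0.49 on the log2 scale, whereas Oas1a was at 11.2 and 12.5 FPKM in Dusp2KO CD44hi, against 9.59 and 10.2 FPKM in WT CD44hi (log2 difference 0.24, adjusted p = 0.059). Oas1a and Oas1b are close copies of each other, so the way reads were shared between them could move either value.

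Of the genes that act on RNA, 1 of 5 fell, beside 13.8% of all genes tested. Isg20, an exonuclease for single-stranded RNA, was at 8.12 and 8.17 FPKM in Dusp2KO CD44hi, against 12.6 and 15.8 FPKM in WT CD44hi (log2 difference −0.72, SE 0.11, adjusted p = 0.0059). Eif2ak2 encodes PKR, the kinase that halts translation on double-stranded RNA, and was at 18.7 and 18.1 FPKM in Dusp2KO CD44hi, against 16.7 and 14.4 FPKM in WT CD44hi (log2 difference 0.23, adjusted p = 0.080). Adar, the editor of double-stranded RNA, had a log2 difference of −0.23 with an adjusted p of 0.052.

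In the PARP family, whose members transfer ADP-ribose, 1 of 4 genes rose and none fell. With 4 genes, these counts cannot be told from the 12.9% higher and 13.8% lower over all genes tested. Parp12 was at 5.69 and 4.86 FPKM in Dusp2KO CD44hi, against 3.85 and 3.53 FPKM in WT CD44hi (log2 difference 0.42, SE 0.094, adjusted p = 0.022). Parp9, Parp10 and Parp14 had log2 differences of −0.02, −0.02 and 0.02 and did not pass. Parp9 and Dtx3l, which encode partners and lie next to each other, thus had log2 differences of −0.02 (adjusted p = 0.82) and −0.28 (adjusted p = 0.021).

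The virus restriction factors and other effectors included 8 lower genes of 12, none higher and 4 that did not pass. Mx2, a dynamin-like GTPase that blocks viruses in the cell, was at 2.01 and 2.46 FPKM in Dusp2KO CD44hi, against 4.84 and 4.16 FPKM in WT CD44hi, 0.496 times the WT level (log2 difference −0.77, SE 0.11, adjusted p = 0.0054). By that ratio Mx2 fell further than Oasl1, whose larger log2 fall rests on the pseudocount. Its relative Mx1 was at 11.4 and 10.9 FPKM in Dusp2KO CD44hi, against 20.1 and 16.5 FPKM in WT CD44hi (log2 difference −0.66, SE 0.097, adjusted p = 0.0060). Both GTPase genes were therefore lower without overlap.

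Ifi27l2a was among the most abundant of the 44 genes, at 369 and 397 FPKM in Dusp2KO CD44hi, against 579 and 714 FPKM in WT CD44hi (log2 difference −0.75, SE 0.12, adjusted p = 0.0088). Rtp4, a chaperone of G protein-coupled receptors, was at 17.8 and 18.0 FPKM in Dusp2KO CD44hi, against 27.9 and 31.7 FPKM in WT CD44hi (log2 difference −0.70, SE 0.077, adjusted p = 0.0028). For both, the WT libraries differed more from each other than the Dusp2KO libraries did. Xaf1, Ifi35 and the neighbours Cmpk2 and Rsad2 (viperin) fell, with log2 differences of −0.53, −0.36, −0.34 and −0.29. Bst2 (tetherin), which holds budding virions at the cell surface, was at 317 and 325 FPKM in Dusp2KO CD44hi, against 340 and 337 FPKM in WT CD44hi (log2 difference −0.08, adjusted p = 0.48). Sp100, Samd9l and Ifi44 did not pass either.

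By promoter content, 5 of the 16 genes with an ISRE core were lower in Dusp2KO CD44hi and none higher, with a median log2 difference of −0.13. Of the 16 genes with a window and no ISRE core, 10 were lower and 2 higher, with a median of −0.31. Beside these counts stand 13.8% lower and 12.9% higher over all genes tested. Such shares were not worked out for all genes with or without the core. The split rests on the exact spacing of the core, since the windows of Xaf1 and Helz2 held gaaacgaaact, which GAAANNGAA misses. Response genes without a window are in neither set. The difference between the sets of 16 was not tested, and no conclusion is drawn from it.

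Without the first Dusp2KO CD44hi library, the count fell to 13 lower and 1 higher, and the calls of Usp18, Trim25, Trim21, Dtx3l, Ddx58, Oasl2, Rsad2, Cmpk2, Ifi35, Ifi27l2a (adjusted p = 0.052) and Parp12 (adjusted p = 0.16) were lost. Without the second, 15 were lower and 2 higher, and Usp18, Trim25, Trim21, Dtx3l, Dhx58, Oasl2, Rsad2 and Cmpk2 lost their calls. Oasl2 was also lost without the second WT CD44hi library, while the 4 factors passed with any 1 library left out. With no filter on low values, 0 of the 44 genes passed and 29 had an unadjusted p below 0.05, in a fit that called 2 genes of 18122. Rescaling to a total of 1000000 lost the calls of Trim25, Trim21, Oasl2, Rsad2 and Cmpk2, and a fit of the CD44hi libraries alone lost Oasl2 and Rsad2. Oasl2 was also lost with median-ratio scaling, quantile normalization and no variance trend.

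In CD44lo cells, where each genotype had 1 library and the difference was described without a test, 36 of the 44 genes were lower in Dusp2KO and 8 higher, with a median log2 difference of −0.29, against −0.01 over all genes, of which 51.6% were lower and 48.4% higher. All 4 factors were lower. Irf1 was at 93.9 FPKM in Dusp2KO CD44lo, against 129 FPKM in WT CD44lo, and Irf7 at 95.7 FPKM, against 117 FPKM. Stat2 was at 26.5 FPKM in Dusp2KO CD44lo, against 37.7 FPKM in WT CD44lo, and Irf9 at 25.9 FPKM, against 31.6 FPKM. Of the 23 genes called lower in CD44hi, 20 were also lower in CD44lo and 3 (Oas1b, Isg20 and Ifi35) were higher. Over all genes tested, 1338 were called lower in CD44hi, of which 901 were also lower in CD44lo and 437 were not. Isg15 was nearly level in CD44lo, at 383 FPKM in Dusp2KO, against 388 FPKM in WT.

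**Figure D4:**
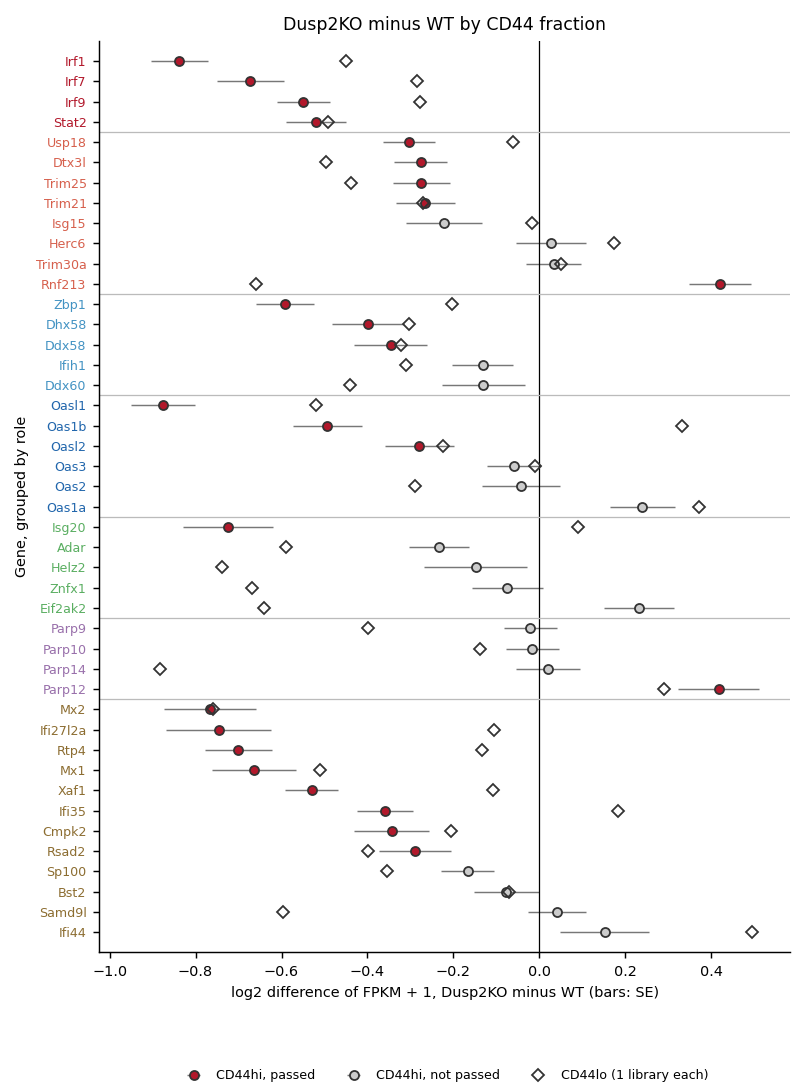
Log2 difference of FPKM + 1, Dusp2KO minus WT, for the 44 interferon response genes by role. Circles are CD44hi (2 libraries each, bars are SE, filled red where the adjusted p was below 0.05) and open diamonds are CD44lo (1 library each, no error). All 4 factors lay left of 0 in both fractions, and Rnf213 lay right of 0 in CD44hi and left of it in CD44lo.

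Fitted over both fractions in an additive model, 14 of the 44 genes were lower in Dusp2KO and 1 higher, where 10.4% of all genes were called, 5.17% lower and 5.23% higher. The 4 factors were among the 14, with adjusted p from 0.0065 (Irf1) to 0.020 (Irf7). The count was between 3 and 5 without any 1 of the CD44hi libraries, and 25 without either CD44lo library, which leaves the CD44hi comparison alone.

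The response genes differed more between CD44 fractions than between genotypes in median size. In Dusp2KO cells, 37 of the 44 were lower in CD44hi than in CD44lo and 1 was higher (Eif2ak2), where 40.1% of all genes were called, 16.5% lower and 23.6% higher. In WT cells, 40 were lower and none higher, where 26.1% of all genes were called, 10.7% lower and 15.4% higher. The medians were −0.91 in Dusp2KO and −0.92 in WT on the log2 scale, against 0.05 over all genes in each. By test, 36 genes were lower in both genotypes, as were 6.72% of all genes. Both CD44hi libraries lay below the CD44lo library in 43 of 44 genes in Dusp2KO (40.4% of all genes) and in 44 of 44 in WT (34.9% of all genes). The lone CD44lo library of each genotype was assumed to vary as the CD44hi pairs did.

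Markers and read shares also moved between fractions, and their part in the result was not tested. The stroma and endothelium list summed in the CD44lo fraction to 9.96 FPKM for Dusp2KO and 14.4 FPKM for WT, above the CD44hi sums given for each genotype. Pecam1 carried that sum and was lower in CD44hi in Dusp2KO (log2 difference −0.78, adjusted p = 0.0037) and in WT (−0.79, adjusted p = 0.0051). The CD8 T cell genes summed there to 1607 FPKM for Dusp2KO and 1588 FPKM for WT, above every CD44hi library, and the mitochondrial share of reads given above was also higher in CD44lo than in CD44hi within each genotype.

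All 4 factors fell in both genotypes. Irf7 had the largest fall of them, with a log2 difference of −1.89 (adjusted p = 0.00010) in Dusp2KO and −1.50 (adjusted p = 0.00019) in WT. The log2 difference of Irf1 was −1.23 in Dusp2KO and −0.84 in WT, that of Stat2 −0.92 in Dusp2KO and −0.89 in WT, and that of Irf9 −0.84 in Dusp2KO and −0.57 in WT. None of these 4 passed the interaction test, with adjusted p from 0.092 to 0.90. Their interactions (Dusp2KO difference minus WT difference) were all below 0, from −0.39 to −0.03. With 1 CD44lo library per genotype, the test cannot show that the falls were equal.

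Among the effectors, Oas2 was at 3.17 and 3.64 FPKM in Dusp2KO CD44hi, against 16.9 FPKM in Dusp2KO CD44lo, and at 3.33 and 3.74 FPKM in WT CD44hi, against 20.9 FPKM in WT CD44lo. Its log2 differences were −2.03 in Dusp2KO and −2.27 in WT. In the CD44lo libraries Oasl2 was at 28.9 FPKM in Dusp2KO and 34.0 FPKM in WT, and its log2 differences between fractions were −2.12 in Dusp2KO and −2.06 in WT. Both genes were thus set apart by fraction far more than by genotype. Isg20 had 40.4 FPKM in the Dusp2KO library of the CD44lo fraction and 37.9 FPKM in the WT library, with log2 differences of −2.18 in Dusp2KO and −1.36 in WT.

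Isg15 had log2 differences of −1.43 in Dusp2KO and −1.22 in WT, and Usp18 of −0.73 in Dusp2KO and −0.49 in WT, all of which passed. Bst2 passed in neither genotype (log2 difference −0.27, adjusted p = 0.059 in Dusp2KO, and −0.26, adjusted p = 0.081 in WT). The genes other than Bst2 that did not pass were Rnf213, Parp14, Trim25, Adar and Helz2 in Dusp2KO and Trim25, Eif2ak2 and Ifi44 in WT.

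**Figure D5:**
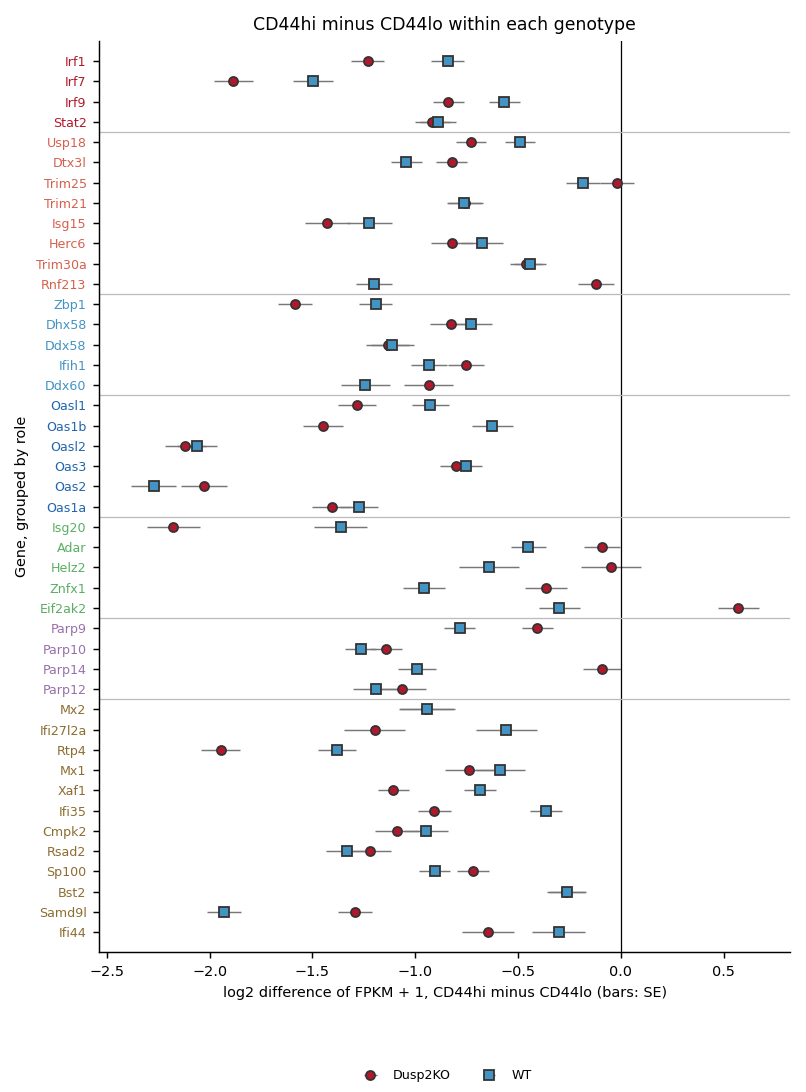
Log2 difference of FPKM + 1, CD44hi minus CD44lo, for the 44 interferon response genes by role in Dusp2KO (red circles) and WT (blue squares). Bars are SE from the fit over 6 libraries. Eif2ak2 was right of 0 in Dusp2KO alone, and Oas2 and Oasl2 had the lowest values in WT, at −2.27 and −2.06.

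The genotype difference itself differed between fractions in 6 of the 44 genes, where 4.22% of all genes passed the interaction test, 2.73% with a positive and 1.49% with a negative value. The interaction is the log2 difference between Dusp2KO and WT in CD44hi minus that in CD44lo. It was positive in Rnf213 (1.08), Parp14 (0.90), Eif2ak2 (0.87) and Samd9l (0.64), and negative in Oas1b (−0.82) and Ifi35 (−0.54). Without a variance trend the count was 1, beside 117 over all genes, where the main fit called 409. Leaving out a WT CD44hi library left 1 in that group. The median interaction of the 44 was then −0.019 without the first and −0.015 without the second, against −0.025 with all libraries.

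Parp14 was at 21.0 and 22.3 FPKM in Dusp2KO CD44hi, against 22.5 and 20.3 FPKM in WT CD44hi, but at 23.1 FPKM in Dusp2KO CD44lo, against 43.5 FPKM in WT CD44lo. Eif2ak2 was at 12.04 FPKM in Dusp2KO CD44lo, against 19.3 FPKM in WT CD44lo. Samd9l, which restricts poxviruses, was at 9.12 and 9.66 FPKM in Dusp2KO CD44hi, against 9.25 and 8.96 FPKM in WT CD44hi, and at 24.4 FPKM in Dusp2KO CD44lo, against 37.4 FPKM in WT CD44lo. In Parp14, Eif2ak2 and Samd9l, the gap between genotypes was larger in CD44lo, where WT was higher. Oas1b was at 3.41 and 3.66 FPKM in Dusp2KO CD44hi, against 5.57 and 5.20 FPKM in WT CD44hi, and at 11.4 FPKM in Dusp2KO CD44lo, against 8.84 FPKM in WT CD44lo. Ifi35 was at 30.6 and 32.2 FPKM in Dusp2KO CD44hi, against 39.6 and 41.5 FPKM in WT CD44hi, and at 59.7 FPKM in Dusp2KO CD44lo, against 52.5 FPKM in WT CD44lo. In Oas1b and Ifi35 the genotypes were in opposite order in the 2 fractions.

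Gene length moved with these values. Across genes, which are not independent replicates, Spearman's rho of the interaction with gene length was 0.48 over 9691 genes and 0.67 over the 44. Rnf213 (17.0 kb) and Parp14 (9.45 kb) were long, and Oas1b (2.02 kb) and Ifi35 (1.75 kb) short. Samd9l (5.51 kb) and Eif2ak2 (5.19 kb) were nearer the median of the 44, 4.46 kb. After removal of a trend with length from each library, Rnf213 (0.65), Parp14 (0.67) and Eif2ak2 (0.83) still passed and Samd9l (adjusted p = 0.057), Oas1b (adjusted p = 0.070) and Ifi35 (adjusted p = 0.13) did not. The genotype difference in CD44hi had a rho of 0.27 over all genes and 0.47 over the 44. With the trend removed, 24 of the 44 were lower and 3 higher, beside 1214 lower and 1455 higher over all genes. In CD44lo rho was −0.33 over all genes and −0.49 over the 44. For the difference between fractions, rho in Dusp2KO was 0.34 over all genes and 0.49 over the 44. In WT it was −0.09 and −0.04. With the length trend removed, 40 of the 44 were lower in CD44hi and 1 higher in Dusp2KO, beside 1812 lower and 1962 higher over all genes. How much of the pattern between fractions goes with length was not tested.

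The rest of the pathway, 37 genes that were not among the 44, moved in both directions. In CD44hi, 9 were lower in Dusp2KO (Ifnar1, Ifngr2, Irf2, Irf3, Socs1, Cish, Ptpn6, Myd88 and Ticam1), 7 were higher (Ifng, Jak2, Irf4, Irf5, Irf8, Ptpn11 and Cgas) and 21 did not pass, beside 13.8% lower and 12.9% higher over all genes tested. Of the receptor chains, Ifnar1 was at 14.2 and 14.3 FPKM in Dusp2KO CD44hi, against 19.8 and 18.4 FPKM in WT CD44hi (log2 difference −0.40, SE 0.068, adjusted p = 0.0097), whereas Ifnar2 had a log2 difference of −0.21 (adjusted p = 0.19). The receptor kinases Jak1 (log2 difference −0.05, adjusted p = 0.60) and Tyk2 (0.03, adjusted p = 0.78) did not pass. Socs1, an inhibitor of the receptor kinases, was at 36.5 and 31.1 FPKM in Dusp2KO CD44hi, against 42.8 and 40.9 FPKM in WT CD44hi (log2 difference −0.30, SE 0.087, adjusted p = 0.044).

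Ifng, the gene of type II interferon, went against the response genes. It was at 571 and 601 FPKM in Dusp2KO CD44hi, against 217 and 186 FPKM in WT CD44hi (log2 difference 1.54, SE 0.091, adjusted p = 0.00064), and at 77.7 FPKM in Dusp2KO CD44lo, against 11.9 FPKM in WT CD44lo. The libraries with the most Ifng were thus those with the lowest summed level of response genes. Of the IRF genes outside the 44, Irf4, Irf5 and Irf8 were higher in Dusp2KO CD44hi by 0.37, 0.91 and 0.47 on the log2 scale while Irf2 and Irf3 were lower, with log2 differences of −0.33 and −0.21. Genes of the IRF family were therefore called in both directions.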

How the data were processed

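RNA-seq of 6 libraries of mouse CD8+ T cells was taken from 1 table that the authors deposited as FPKM, with 18122 rows. The submitters' processing notes name HISAT2 2.0.5 and, without saying what each was for, mm39 and hg38. How reads were counted, on which annotation and with which strand setting is not given in the sources used here. Groups were taken from sample titles, and 0 columns were left unused. The label description also names 10X Genomics, while the values are per library.

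Genes averaging 1 FPKM or more over all libraries were tested with limma 3.58.1 in R 4.3.3. Values were log2(FPKM + 1), whose pseudocount understates changes of low genes. The fit had a variance trend, and two-sided p-values were adjusted by Benjamini-Hochberg at 0.05. Each group had a coefficient, or genotype and fraction were additive. In CD44lo, differences were only described.

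Whole reads, recovered from the steps of the FPKM values (16220 of 16220 rows within 1e-06 reads), gave depth, floors of 3 reads and an alternative fit. Floors cover counting error only. The test was also run on simulated data with 200 changed genes. Those data had independent noise for each gene and no library or length effect, so the run says nothing on such effects.

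Named genes were the 8 largest falls and 5 largest rises called in CD44hi, the 3 largest changes each way called between fractions in both genotypes, up to 6 interactions by p, the factors, Isg15, Usp18, the called pathway genes, and the receptor genes, their kinases and Socs1. Other members were given by count or by 1 value, except Zbp1, Oas1a and Bst2, chosen for values by library after those were seen. Some of the pathway is not reported here. The members and lists were chosen with earlier results of these data known. Alternatives were other pseudocounts, filters, scalings and variance models, recovered reads, a length trend, a replicate block and leaving out libraries. Alternatives for single genes in the interaction and fraction comparisons were added after seeing the data.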

Additional observations from a re-analysis of the deposited data

Results flagged for a closer look

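In 6 of the 44 genes the difference between Dusp2KO and WT was not the same in CD44hi and CD44lo, by the interaction term of the limma fit over all 9691 genes. The interaction was 1.08 in Rnf213 (SE 0.124, adjusted p = 0.025), 0.90 in Parp14 (SE 0.13, adjusted p = 0.032), 0.87 in Eif2ak2 (SE 0.142, adjusted p = 0.037) and 0.64 in Samd9l (SE 0.116, adjusted p = 0.044). It was −0.82 in Oas1b (SE 0.138, adjusted p = 0.040) and −0.54 in Ifi35 (SE 0.111, adjusted p = 0.0497). Each rests on 1 CD44lo library per genotype. The calls held in 15 of 16 alternatives in Rnf213, 14 in Parp14, 14 in Eif2ak2, 12 in Oas1b, 11 in Samd9l and 6 in Ifi35, so the Ifi35 call was lost in most. Over the alternatives, adjusted p reached from 1.18e-05 to 0.12 in Rnf213, 0.00014 to 0.13 in Parp14, 0.00026 to 0.14 in Eif2ak2, 0.0042 to 0.12 in Samd9l, 0.0024 to 0.13 in Oas1b and 0.0065 to 0.14 in Ifi35.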

How the results depend on the processing

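Counts of response genes called in CD44hi by genotype (25) ranged from 14 to 27 with a library left out and from 21 to 28 in the other alternatives, except 0 with no filter, where 29 had an unadjusted p below 0.05. Of the 25 genes, 12 stayed past the threshold in all 18 alternatives other than no filter, Stat2, Irf1, Irf7 and Irf9 among them, and Mx2 in the 17 that tested it. Over all genes, 2586 calls became 1185 or 1088 without a Dusp2KO CD44hi library and 4092 or 3112 without a WT CD44hi library. Interaction calls (6, beside 409 over all genes) were 0 with no filter (18 unadjusted), beside 39 over all genes. They were 3 with the length trend removed and 1 with no variance trend, beside 184 and 117 over all genes. Rescaling to a total of 1000000 gave 5 higher and 0 lower, beside 379 and 43 over all genes. A CD44lo library left out gives no interaction. Calls in the additive model (15, beside 1008 over all genes) were 4 with no filter and 22 with the length trend removed, beside 318 and 1558 over all genes. Fraction calls (38 in Dusp2KO and 40 in WT) were 32 in each genotype with no filter, beside 2085 and 1170 over all genes. With the length trend removed they were 41 in Dusp2KO and 42 in WT, beside 3774 and 2809 over all genes. Other fits that kept all libraries lay within these ranges. The median genotype difference in CD44hi (−0.27) was −0.23 at a total of 1000000 and −0.30 to −0.22 with a library left out. In CD44lo (−0.29) it was −0.40 at that total, which moved the all-gene median to −0.11, and −0.23 with the length trend removed. The same rescaling moved the all-gene median to 0.18 between fractions in Dusp2KO and to 0.13 for the interaction. None of the 25 genes changed sign by genotype in CD44hi, but genes that did not pass there did, so the number below 0 (35) ranged from 32 to 37. The number below 0 between fractions in Dusp2KO (43) was as low as 38, and the median interaction (−0.02) reached 0.10, at that total.

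Replicate numbers are shared between genotypes, but differences between replicates 2 and 1 in Dusp2KO and in WT had r = 0.022 across 9691 genes. With 1 such difference per genotype, this cannot settle whether same-numbered libraries were paired, which the labels do not say. With a replicate block, 28 response genes were called by genotype in CD44hi, 11 for the interaction and 7 in the additive model. Over all genes, these calls numbered 3326, 1565 and 468.

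CD44lo differences rest on 1 library each, the shallowest being Dusp2KO CD44lo with 23490008 recovered reads. How reads of near-identical genes or opposite strands were divided is not known.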
